A study of Mus musculus with 16 samples.

Results

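MicroRNA levels were compared between mature and progenitor cells of mouse bone marrow, using the 10 of 16 arrays of the series that came from marrow. The mature cells were Gr1+ monocytes and PDC (plasmacytoid dendritic cells), and the progenitors were MP, MDP and CDP, with 2 arrays for each of the 5 populations. The samples were chosen by their titles, and the 6 spleen arrays entered neither the scaling nor the fit. The wider study profiled microRNAs in myeloid and dendritic cell populations of this strain.

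All 5 populations were sorted directly from femur and tibia of female C57Bl/6 mice aged 6 weeks, with no transgene or deletion named in the labels. Each progenitor array held RNA pooled from 15 mice and each mature array RNA pooled from 5 mice, so a value is the average of a pool, and the 2 arrays of a population are labelled as biological replicates. The progenitors lacked lineage markers and carried CD135. MP were CD117+ and CD115-, MDP were CD117+ and CD115+, and CDP had low CD117 and were CD115+. Monocytes were sorted as CD11b+, CD115+ and Gr1+, and PDC as B220+ cells with intermediate CD11c that carried SiglecH and CD317. MDP and CDP are the usual short names of the macrophage and dendritic cell progenitor and the common dendritic cell progenitor. MP is not spelled out in the labels and is used here for the sorted CD115- population. The pool sizes and the sorting enrichment differed between progenitor and mature cells, so these cannot be told apart from the cell type.

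MicroRNAs are short RNAs that guide Argonaute proteins to messenger RNAs, mainly by pairing of the seed, which is bases 2 to 8 counted from the 5' end, and they lower the stability or translation of those messages. Members of a family share the seed and are usually taken to share targets, and many are cut from transcripts that carry several of them in a row. In marrow, MDP give rise to monocytes and dendritic cells, CDP to dendritic cells including PDC, and both mature populations divide less than their progenitors.

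Of 604 mouse microRNAs present on both array designs, 153 were tested, each of them detected on both arrays of some marrow population. For each mature population the difference from the mean of the 3 progenitor populations was fitted, and a microRNA was said to move alike when the differences of both had an adjusted p under 0.05 and the same sign. In monocytes 66 microRNAs were called (43.1% of those tested), 33 higher and 33 lower (21.6% each). In PDC 79 were called (51.6%), 44 higher (28.8%) and 35 lower (22.9%). Both calls with the same sign held for 41 microRNAs (26.8% of those tested), of which 21 (13.7%) were higher and 20 (13.1%) were lower in both mature populations. Another 6 (3.92%) were called in opposite directions, 19 were called in monocytes only, 32 in PDC only and 55 in neither. The 2 differences share the 6 progenitor arrays, so they are not independent readings. The balance of directions depended on the scaling: scaled to the percentile over all microRNAs, 35 moved alike, 14 higher and 21 lower.

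Mature sequences of the microRNAs that carry these results are given from RefSeq (GRCm38.p6), matched through the array probes, with the seed in capitals. RefSeq now names miR-126-3p and miR-195 as miR-126a-3p and miR-195a-5p. A RefSeq entry was matched for 133 of the 153 tested microRNAs and for 36 of the 41 that moved alike. The miR-15 and miR-16 family is shown because 4 of its members, with a common seed, were higher in both mature populations:
miR-15a: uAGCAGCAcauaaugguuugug
miR-15b: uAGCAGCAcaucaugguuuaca
miR-16: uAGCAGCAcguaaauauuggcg
miR-195: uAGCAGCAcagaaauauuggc

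The miR-17 and miR-19 seeds are shown because all 5 of the following were lower in both. miR-19a and miR-19b differ by 1 base, and miR-17, miR-20a and miR-20b differ from each other by 2. Cross-hybridisation among them was not tested. miR-106b and miR-93 share the seed of miR-17 and did not move alike. The probes for miR-17 also match miR-106a-5p, so its signal can hold both:
miR-17: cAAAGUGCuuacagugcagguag
miR-20a: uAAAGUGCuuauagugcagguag
miR-20b: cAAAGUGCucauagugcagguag
miR-19a: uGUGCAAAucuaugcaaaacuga
miR-19b: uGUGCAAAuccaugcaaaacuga

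The let-7 seed is shown because it was the only seed, among the matched microRNAs, with members that moved alike in both directions, let-7g and let-7i higher and let-7b and let-7c lower:
let-7g: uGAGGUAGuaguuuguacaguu
let-7i: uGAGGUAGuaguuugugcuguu
let-7b: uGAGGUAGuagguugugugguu
let-7c: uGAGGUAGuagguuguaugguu

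The remaining sequences are those of microRNAs with a large change that the text follows array by array (miR-22, miR-342-3p, miR-126-3p and miR-125b-5p), of miR-221 and miR-222, which share a seed and were both lower, and of miR-27b and miR-27a, which share a seed and did not move together:
miR-22: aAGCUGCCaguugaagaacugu
miR-342-3p: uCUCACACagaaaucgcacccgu
miR-126-3p: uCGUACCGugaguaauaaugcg
miR-125b-5p: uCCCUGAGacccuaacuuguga
miR-221: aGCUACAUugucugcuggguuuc
miR-222: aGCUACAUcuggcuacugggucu
miR-27b: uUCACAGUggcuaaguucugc
miR-27a: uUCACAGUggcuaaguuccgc

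All values below are log2 of the array's processed signal divided by that array's 75th percentile, so a value of 0 lies at the 75th percentile of the 90 microRNAs detected on all 10 arrays, and values of different microRNAs are not compared because probes differ in brightness. Values under a detection floor were set to it, at -5.29 on design 1 and -5.77 on design 2. Replicate 1 of every population was run on design 1 and replicate 2 on design 2, so the pairs of values below are given in that order. The arrays detected 116 to 171 of the 604 microRNAs. Once the design was removed, each array correlated best, among the arrays of the other design, with that of its own population. Arrays of the same design were not compared in this way. The myeloid list was highest in monocytes (summed scaled signal of 8 microRNAs, 39.2 and 30.9, against 6.28 to 18.1 elsewhere) and the lymphocyte list in PDC (7 microRNAs, 3.49 and 4.03, against 0.938 to 1.55). The stromal, muscle and epithelial list had none of 17 members detected on both arrays of any population. Of the 3 erythroid markers, miR-144 was detected on 0 of 10 arrays, miR-486 on 1 and miR-451 on 7. miR-451 was high on MP array 1 (-0.98, against -5.11 on MP array 2) and in PDC (-2.90 and -1.53) and was at most -4.56 elsewhere. The part of erythroid or lymphocyte RNA in the results below was not tested. The messenger RNAs of the sorting markers are not measured by these arrays. In bulk samples scaled within the array, fewer cells of a type and less RNA per cell cannot be told apart.

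**Figure D1:**
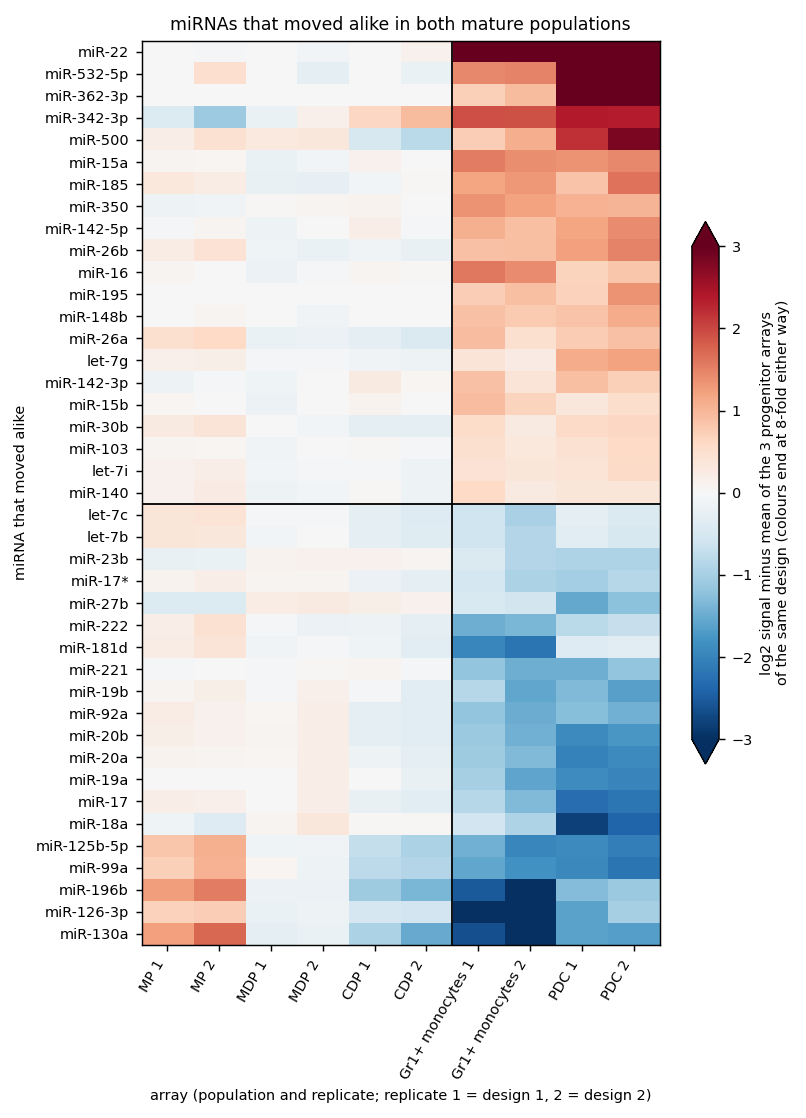
Each row is 1 of the 41 microRNAs that moved alike and each column 1 of the 10 marrow arrays. Colour gives the log2 signal minus the mean of the 3 progenitor arrays of the same design, red for higher and blue for lower, and the black lines part progenitors from mature cells and the 21 higher from the 20 lower microRNAs.

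The microRNAs that were higher in both mature populations were led by miR-22, miR-532-5p, miR-362-3p and miR-342-3p. Over the 21, with miR-362-3p at its bound because no progenitor array detected it, the median difference was 0.84 in monocytes (range 0.24 to 4.31) and 1.03 in PDC (0.36 to 3.98). Over all 153 tested, the medians were 0.00 and -0.04. In 19 of the 21, every mature array lay above every progenitor array of its own design, which held for 21 of all 153 tested (13.7%).

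miR-22, which is induced during myeloid differentiation in several systems, had the largest fitted difference of the 21 in the pooled contrast and in monocytes. In PDC the fitted differences of miR-362-3p and miR-532-5p were larger. It read -5.29 and -5.74 in MP, -5.29 and -5.77 in MDP, and -5.29 and -5.55 in CDP, and was detected on only 2 of these 6 arrays. Monocytes read -0.98 and -1.38 and PDC -2.04 and -2.33, so the groups were far apart on both designs. The difference was 3.81 ± 0.06 (SE) for both mature populations together, with an adjusted p of 6.62e-07 (limma). It was 4.31 ± 0.07 in monocytes and 3.31 ± 0.07 in PDC, and monocytes exceeded PDC by 1.01 ± 0.09 (adjusted p = 0.000538). Most progenitor values sat at the floor, where they do not vary, so the SE is too small and the size depends on the floor. The probe of miR-22 lies at chr11:75277278-75277295 (mm9).

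miR-342-3p, which is encoded within the Evl gene, was detected on all 10 arrays. MP read -3.27 and -4.03, MDP -3.04 and -2.78, and CDP -2.23 and -1.97. Monocytes read -0.92 and -1.02 and PDC -0.47 and -0.57, above all 6 progenitor arrays, and within the progenitors the CDP arrays were the highest. The difference was 2.14 ± 0.17 (adjusted p = 0.000212, limma), a 4.42-fold difference, with 1.92 ± 0.21 in monocytes and 2.37 ± 0.21 in PDC. miR-342-3p is itself on the lymphocyte list, whose summed signal was 1.02 and 0.938 in monocytes, 3.49 and 4.03 in PDC and 1.04 to 1.55 in progenitors, and the part of lymphocyte RNA was not tested.

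In the miR-15 and miR-16 family, whose members are known as brakes on cyclins and BCL2, 4 of 5 tested members were higher in both populations. Over all 153 tested, the share that was higher in both was 13.7%. The pooled median of the 5 family members was 0.93, against 0.07 over all 153 tested. miR-15a read -0.28 and -0.50 in MP, -0.55 and -0.65 in MDP, -0.22 and -0.55 in CDP, 1.17 and 0.82 in monocytes, and 1.00 and 0.86 in PDC. The 4 mature values did not overlap with the progenitors, and the rise was of like size in both, 1.46 ± 0.08 in monocytes and 1.39 ± 0.08 in PDC (adjusted p = 0.00015 and 0.000107, limma). The difference between the mature populations was 0.06 ± 0.10 (adjusted p = 0.625). miR-16 read between 0.77 and 1.02 on the 6 progenitor arrays, 2.51 and 2.37 in monocytes, and 1.59 and 1.81 in PDC. Its rise of 1.49 ± 0.09 in monocytes exceeded that in PDC, 0.75 ± 0.09, by 0.74 ± 0.12 (adjusted p = 0.00405, limma). The summed erythroid signal on design 1 and design 2 was 0.0296 and 0.0485 in monocytes and 0.134 and 0.361 in PDC, beside 0.543 and 0.0302 in MP, 0.0254 and 0.0304 in MDP, and 0.0406 and 0.0288 in CDP. Its part in these rises was not tested. miR-15b rose by 0.80 ± 0.11 and 0.43 ± 0.11. miR-195 rose by 0.82 ± 0.15 and 1.03 ± 0.15 but was detected on 1 of the 6 progenitor arrays. The member that did not move alike was miR-322, which differed by -0.03 ± 0.11 in monocytes and fell by 1.77 ± 0.11 in PDC.

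miR-142 is a microRNA of blood cells in general, and both of its arms were higher. The 5' arm, miR-142-5p, read -2.92 and -3.37 in MP, -3.01 and -3.47 in MDP, -2.65 and -3.51 in CDP, -1.78 and -2.55 in monocytes, and -1.67 and -2.03 in PDC. Design 1 read higher than design 2 in every population, and within each design the mature arrays were above the progenitors. Its difference was 0.99 ± 0.12 in monocytes and 1.31 ± 0.12 in PDC, and that of miR-142-3p was 0.63 ± 0.14 and 0.82 ± 0.14. Neither arm was called between monocytes and PDC (adjusted p = 0.149 and 0.408, limma). Over all arrays, miR-142-3p overlapped between the groups, because design 2 read lower.

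miR-26a and miR-26b, which share the seed UCAAGUA and lie within the Ctdsp genes, were both higher. The 6 progenitor arrays of miR-26b ranged from -1.68 to -0.87, while monocytes read -0.21 and -0.55 and PDC 0.14 and 0.05, with no overlap. Its rise was 0.89 ± 0.10 in monocytes and 1.36 ± 0.10 in PDC. miR-26a was as high in MP (0.29 and 0.60) as on monocyte array 2 (0.49), so its groups overlapped, and it rose by 0.70 ± 0.13 and 0.82 ± 0.13 against the mean of the progenitors.

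On the X chromosome a row of microRNAs between probe starts 6814874 and 6825593 (mm9) holds miR-500, miR-362 and miR-532. The matched entries of miR-500, miR-362 and miR-532-3p lie inside the Clcn5 gene. Of 7 tested members of this cluster 3 were higher in both populations, beside 13.7% of all 153 tested. The rise was larger in PDC for each of the 3. miR-532-5p read -5.29 to -4.96 in MP, and -5.77 to -5.29 in MDP and CDP. It was detected on 3 of the 6 progenitor arrays, and most of these values sat at the floor, so the size of its rise depends on the floor. Monocytes read -3.85 and -3.98 and PDC -1.55 and -1.24. Its difference was 1.46 ± 0.20 in monocytes and 3.98 ± 0.20 in PDC, and monocytes minus PDC was -2.52 ± 0.24 (adjusted p = 0.000728, limma). miR-500 read -3.66 to -2.15 on the progenitor arrays, -1.69 and -1.76 in monocytes, and -0.24 and -0.03 in PDC. It was 1.90-fold higher in monocytes and 5.72-fold higher in PDC. miR-362-3p was not well above background on any progenitor array, so only a bound can be given. Monocytes averaged -4.70 and PDC -1.38 against a floored progenitor mean of -5.53, which is at least 1.18-fold higher in monocytes and at least 11.8-fold higher in PDC (adjusted p = 0.00425 and 2e-05, limma). miR-362-3p was tested only because mature cells detected it. Its floored progenitor values do not vary, so the SE behind these p-values is too small. The other members, among them miR-532-3p and miR-362-5p, were called in PDC only or in neither.

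The remaining rises were smaller. miR-350, within Cep170, read -3.90 to -3.64 on all progenitor arrays, -2.40 and -2.51 in monocytes, and -2.71 and -2.70 in PDC, a rise of 1.28 ± 0.07 and 1.03 ± 0.07. miR-185 rose by 1.24 ± 0.18 and 1.25 ± 0.18 from a level that was not detected on the MDP arrays. miR-148b rose by 0.84 ± 0.10 and 0.99 ± 0.10. miR-30b, miR-103 and miR-140 rose by 0.36 to 0.59 in either population, and for miR-30b the MP arrays (-1.86 and -1.59) overlapped with monocytes (-1.58 and -1.68).

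**Figure D2:**
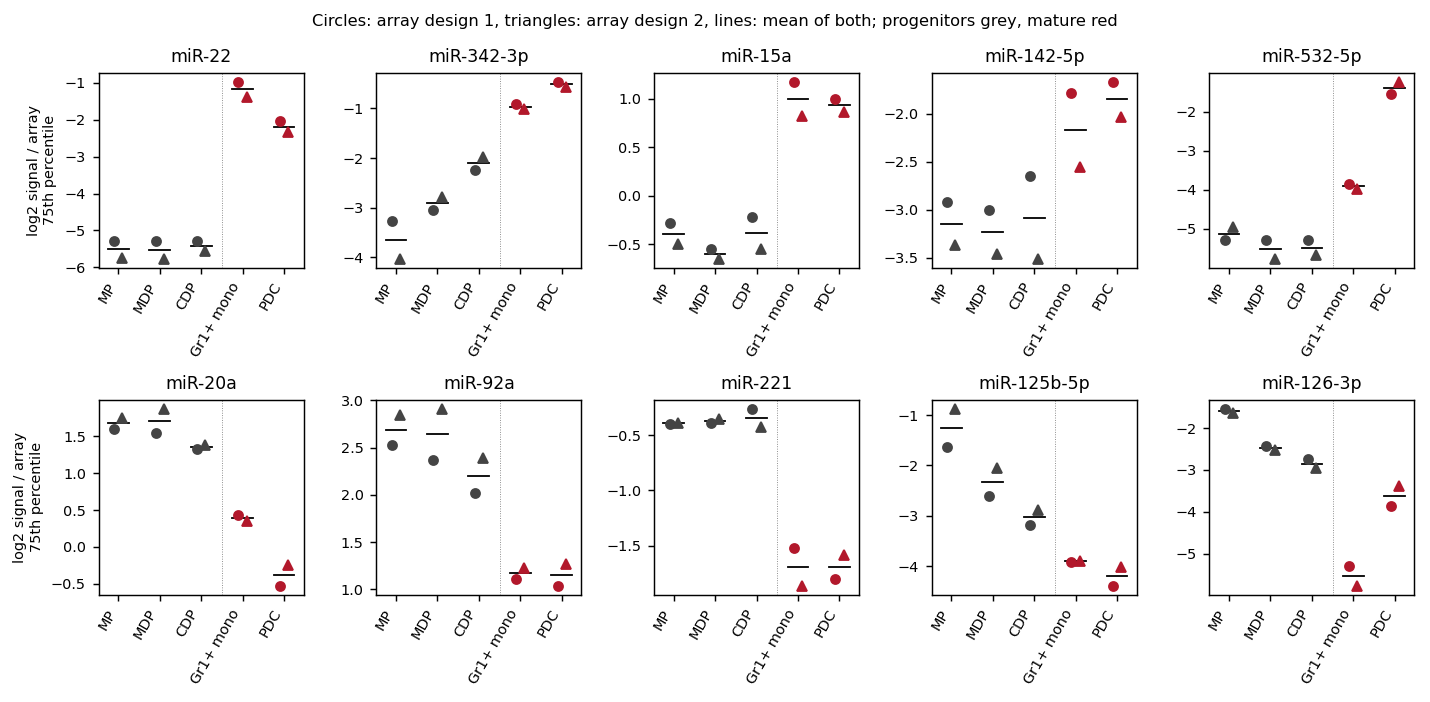
Log2 signal of 10 of the microRNAs that moved alike on every marrow array, 1 panel per microRNA with its own vertical axis, circles for design 1, triangles for design 2 and lines for the mean of both. The upper row, from miR-22 to miR-532-5p, has all 4 mature arrays (red) above the progenitors (grey) of the same design, and the lower row, from miR-20a to miR-126-3p, has them below.

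Of the 20 microRNAs that were lower in both mature populations, 5 were on the stem and early progenitor list, 8 were of the miR-17 clusters and 2 were miR-221 and miR-222. The other 5 were let-7b, let-7c, miR-23b, miR-27b and miR-181d. With the 3 that were undetected in monocytes set to their bound, the median difference of the 20 was -1.28 in monocytes (range -2.76 to -0.51), and it was -1.37 in PDC (-2.60 to -0.34). No overlap within either design was seen for 17 of the 20, and for 22 of all 153 tested (14.4%).

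Of the stem and early progenitor list, 7 of 13 members were tested, 5 moved alike and all 5 were lower, beside 13.1% of all 153 tested. let-7e and miR-10a did not move alike. The pooled median of the 7 was -1.88, against 0.07 over all 153 tested. These 5, miR-126-3p, miR-130a, miR-196b, miR-99a and miR-125b-5p, also differed among the progenitors, with the highest values in MP and the lowest in CDP. miR-126-3p, which lies within Egfl7 and is known for keeping stem cells quiescent, read -1.54 and -1.64 in MP, -2.43 and -2.51 in MDP, and -2.75 and -2.95 in CDP. PDC read -3.85 and -3.38, lower than every progenitor array, and it was not well above background on either monocyte array. Monocytes were at least 6.78-fold lower than the progenitor mean (adjusted p = 0.00015, limma), and PDC fell by 1.31 ± 0.18 (0.00187).

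miR-125b-5p, a microRNA that expands early blood progenitors when forced, was detected on all 10 arrays. It read -1.62 and -0.88 in MP, -2.60 and -2.04 in MDP, and -3.17 and -2.89 in CDP. Monocytes read -3.91 and -3.89 and PDC -4.38 and -4.01, lower than every progenitor array. It fell by 1.70 ± 0.15 in monocytes and by 2.00 ± 0.15 in PDC, and the mature populations were not called different (0.30 ± 0.18, adjusted p = 0.242, limma). miR-99a behaved alike, from -2.64 and -1.85 in MP to -4.92 and -4.71 in monocytes and -5.29 and -5.07 in PDC. It was detected on only 1 of the 2 PDC arrays, and its value on PDC array 1 was the floor.

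For miR-130a and miR-196b, the choice of the progenitor decided the PDC result. miR-196b, from the Hoxa cluster, read -1.53 and -1.25 in MP, -2.95 and -2.96 in MDP, -3.85 and -4.15 in CDP, and -4.08 and -3.91 in PDC. The CDP and PDC values overlapped, and PDC minus CDP alone was 0.01 ± 0.20 (adjusted p = 1, limma), whereas PDC minus the mean of the progenitors was -1.21 ± 0.17. miR-130a read -1.42 and -0.60 in MP, -2.92 and -2.52 in MDP, -3.60 and -3.82 in CDP, and -4.26 and -3.95 in PDC. Its PDC minus CDP difference was -0.40 ± 0.32 (adjusted p = 0.409, limma). Neither was well above background in monocytes, which were at least 6.01-fold lower for miR-130a and at least 4.87-fold lower for miR-196b.

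The miR-17 clusters, whose products promote proliferation and survival of blood progenitors, had 11 tested members. Of these, 8 were lower in both populations, beside 13.1% of all 153 tested, and none was higher in either. The pooled median of the 11 was -1.35, against 0.07 over all 153 tested. On chromosome 14, 7 of 8 tested microRNAs between probe starts 115442916 and 115443702 (mm9) were lower in both, and the eighth, miR-18a*, was near the floor on all arrays. The probes of miR-17, miR-19b and miR-92a also map to the row on X that holds miR-20b, so their signal cannot be assigned to 1 of these rows. miR-20a read 1.60 and 1.76 in MP, 1.55 and 1.87 in MDP, 1.33 and 1.38 in CDP, 0.43 and 0.35 in monocytes, and -0.53 and -0.24 in PDC. The PDC arrays were the lowest and no mature array overlapped with a progenitor array. It fell by 1.19 ± 0.10 in monocytes and by 1.97 ± 0.10 in PDC, and the fall in PDC was larger by 0.78 ± 0.12 (adjusted p = 0.00413, limma). miR-92a read 2.53 and 2.85 in MP, 2.37 and 2.91 in MDP, 2.02 and 2.39 in CDP, 1.11 and 1.22 in monocytes, and 1.04 and 1.27 in PDC. Its fall was of like size in both, 1.34 ± 0.10 and 1.35 ± 0.10, and the difference between them was 0.01 ± 0.12 (adjusted p = 0.995).

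Members of this cluster thus fell to different extents in PDC. miR-18a read -1.81 to -1.09 on the progenitor arrays, -2.13 and -2.36 in monocytes, and -4.36 and -3.83 in PDC. It fell 1.68-fold in monocytes and 6.07-fold in PDC, and the gap of 1.85 ± 0.21 between the mature populations was the widest of the cluster (adjusted p = 0.00146, limma). miR-17, miR-19a and miR-20b also fell further in PDC (adjusted p = 0.00317, 0.0389 and 0.0242, limma), whereas miR-19b and miR-92a were not called between the 2. miR-17 was detected on only 1 of the 2 PDC arrays. miR-20b, from the related cluster on X, fell by 1.28 ± 0.11 and by 1.83 ± 0.11. In the third cluster, miR-106b differed by -0.26 ± 0.09 and 0.05 ± 0.09, and neither difference was called. miR-25 was lower in monocytes only and miR-93 in PDC only.

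miR-221 and miR-222, which target the KIT receptor and p27, differed in how much they varied among the progenitors. miR-221 read -0.40 and -0.39 in MP, -0.39 and -0.36 in MDP, -0.26 and -0.42 in CDP, -1.53 and -1.86 in monocytes, and -1.80 and -1.58 in PDC. Every mature array was lower than every progenitor array, with a fall of 1.32 ± 0.12 in each population (adjusted p = 0.000493 and 0.000339, limma). miR-222, its neighbour on X, fell by 1.42 ± 0.10 in monocytes and 0.75 ± 0.10 in PDC. It read -2.45 to -1.48 on the progenitor arrays, -3.75 and -3.32 in monocytes and -3.11 and -2.63 in PDC, and monocytes minus PDC was -0.67 ± 0.13 (adjusted p = 0.00812).

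The let-7 family is known for repressing cell cycle and stem cell genes and for rising during differentiation. All 9 of its members were tested, and the pooled median was 0.11, against 0.07 over all 153 tested. Of the 9, 2 were higher in both populations and 2 were lower in both, beside 13.7% and 13.1% of all 153 tested. This mixed pattern depended on the processing. let-7g and let-7i lost the call when scaled over all microRNAs, under quantile normalization and without the block, and let-7b and let-7c lost it without the block and without MP in the progenitor mean. None of the 4 moved alike with normexp. let-7g, within Wdr82, read 0.41 to 0.74 on the progenitor arrays, 0.95 and 0.80 in monocytes, and 1.67 and 1.76 in PDC, with no overlap. It rose by 0.31 ± 0.07 in monocytes and by 1.15 ± 0.07 in PDC. let-7i rose by 0.40 ± 0.08 and 0.49 ± 0.08. let-7b read 0.65 and 1.04 in MP, 0.21 and 0.71 in MDP, 0.00 and 0.32 in CDP, -0.32 and -0.19 in monocytes, and -0.04 and 0.21 in PDC. It fell by 0.75 ± 0.09 and 0.40 ± 0.09, although PDC minus CDP alone was -0.08 ± 0.11 (adjusted p = 0.651, limma). let-7c, which has a copy in a row with let-7b on chromosome 15 and another with miR-99a on chromosome 16, fell by 0.77 ± 0.10 and 0.35 ± 0.10. The mature sequences of let-7b and let-7c differ from each other by 1 edit, and cross-hybridisation between them was not tested.

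Of the miR-23, miR-27 and miR-24 clusters, the pair on chromosome 13, miR-23b and miR-27b, was lower in both populations. miR-27b read -1.70 to -0.96 on the progenitor arrays, -1.75 and -1.78 in monocytes, and -2.83 and -2.45 in PDC. Its MP arrays (-1.70 and -1.62) lay just above the monocytes. It fell by 0.51 ± 0.10 in monocytes and by 1.39 ± 0.10 in PDC. The matching pair on chromosome 8 differed. miR-27a was 0.94 ± 0.11 higher in monocytes and fell by 0.80 ± 0.11 in PDC. miR-23a rose in monocytes only, by 0.77 ± 0.10.

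**Figure D3:**
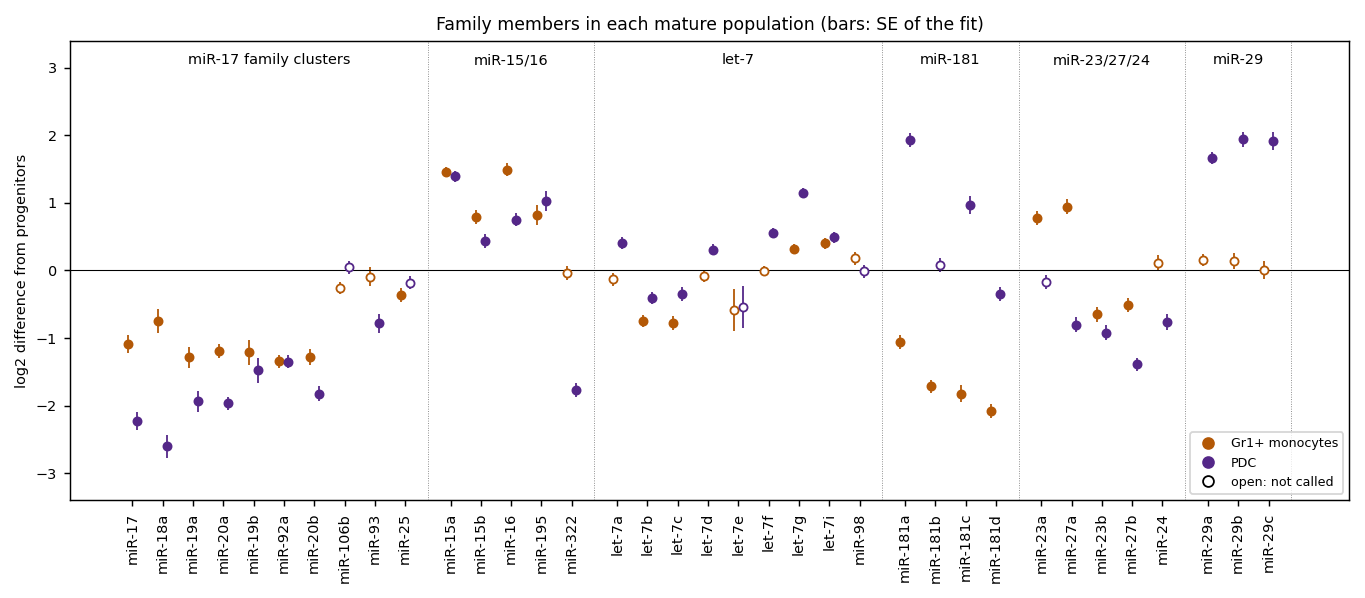
Log2 difference from the progenitor mean, with its SE, for members of 6 families in monocytes (orange) and PDC (purple), filled where the adjusted p was under 0.05. Both colours of miR-17 to miR-20b lie below 0 and both colours of 4 miR-15/16 members above it, while let-7, miR-181 and miR-23/27/24 are mixed and miR-29 is filled in PDC only.

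Most of the other lists did not move alike. Of the miR-181 family miR-181d alone moved alike, with a fall of 2.08 ± 0.10 in monocytes and of 0.34 ± 0.10 in PDC, where its arrays (-2.77 and -2.56) overlapped with CDP (-2.52 and -2.59). miR-181a and miR-181c were lower in monocytes (-1.06 ± 0.10 and -1.83 ± 0.13) and higher in PDC (1.93 ± 0.10 and 0.97 ± 0.13). miR-223, a granulocyte and monocyte microRNA, was higher in monocytes by 1.61 ± 0.21 and lower in PDC (-2.49 ± 0.21). It read 4.56 and 4.31 in monocytes, 2.10 to 3.48 on the progenitor arrays, and 0.56 and 0.10 in PDC. miR-128 (-0.90 ± 0.26 and 3.31 ± 0.26) and miR-374 (-0.41 ± 0.09 and 0.89 ± 0.09) completed the 6 with miR-27a. The miR-30 family had 1 of 5 members higher in both, beside 13.7% of all 153 tested. None of the 5 tested members of the activation list, of 3 of the miR-322, miR-503 and miR-450 cluster, of the miR-29 family or of the Dlk1-Dio3 locus (1 tested of 40) moved alike.

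**Figure D4:**
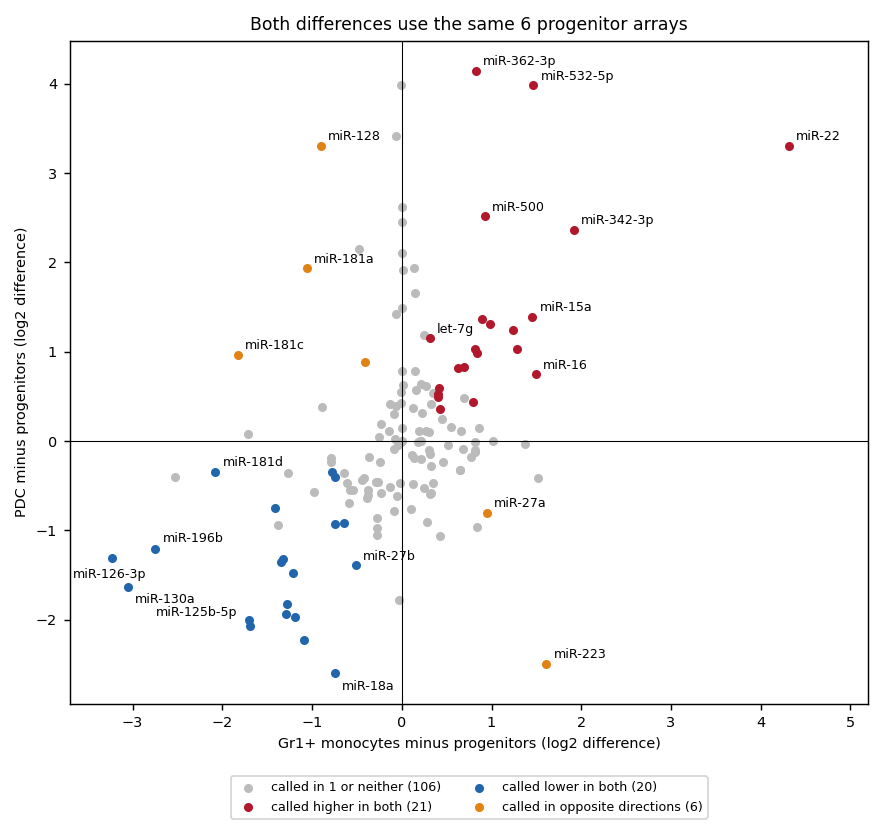
Each point is 1 of the 153 tested microRNAs, placed by its log2 difference from the progenitors in monocytes (horizontal) and in PDC (vertical). The 21 red points are called higher in both, the 20 blue points lower in both and the 6 orange points in opposite directions, and the shared progenitor arrays link both axes.

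Tested directly against each other, monocytes and PDC differed in 20 of the 41 microRNAs that moved alike, where 71 of all 153 tested (46.4%) were called, 30 higher (19.6%) and 41 lower (26.8%) in monocytes. Among the 21 higher microRNAs, miR-22 and miR-16 were higher in monocytes, 5 were higher in PDC and 14 were not called. Among the 20 lower microRNAs, 7 fell further in monocytes, 6 fell further in PDC and 7 were not called. When the mature populations were set against separate progenitors, monocytes against MDP and PDC against CDP, no array was shared. By that measure 34 microRNAs moved alike, 19 higher (12.4%) and 15 lower (9.8%) of the 153 tested, and 33 of them, 18 higher and 15 lower, were among the 41. The 8 that dropped out were miR-15b, miR-140 and miR-500 among the higher and let-7b, let-7c, miR-130a, miR-181d and miR-196b among the lower.

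The pooled contrast of mature against progenitor cells called 88 of 153 microRNAs (57.5%), 49 higher (32%) and 39 lower (25.5%). It is the mean of the 2 contrasts that define the 41, so the calls of all 41 in it are no separate evidence. It also called 47 that did not move alike, of which miR-150 (1.99 ± 0.31) and miR-146a (1.68 ± 0.25) were higher in PDC only, and miR-155 was lower in monocytes only. These p-values take the arrays as the unit. With each population as 1 value, 2 mature against 3 progenitor populations, 13 were called and 12 of them were among the 41. Of these, miR-22, miR-15a, miR-350, miR-148b, miR-195, miR-142-5p and miR-185 were higher, and miR-221, miR-19b, miR-92a, miR-19a and miR-20b were lower. Flooring limits some of the higher calls. The progenitor populations spanned 0 for miR-195 and 0.11 for miR-22, which were detected on 1 and 2 progenitor arrays. Their p-values can therefore be too small here as well. The progenitor means of miR-148b (-5.32) and miR-185 (-5.16) were also near the floor. With background correction by normexp in place of the processed signal, 9 microRNAs moved alike, namely miR-15a, miR-16, miR-22, miR-26b and miR-342-3p among the higher and miR-19b, miR-20a, miR-20b and miR-92a among the lower.

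**Figure D5:**
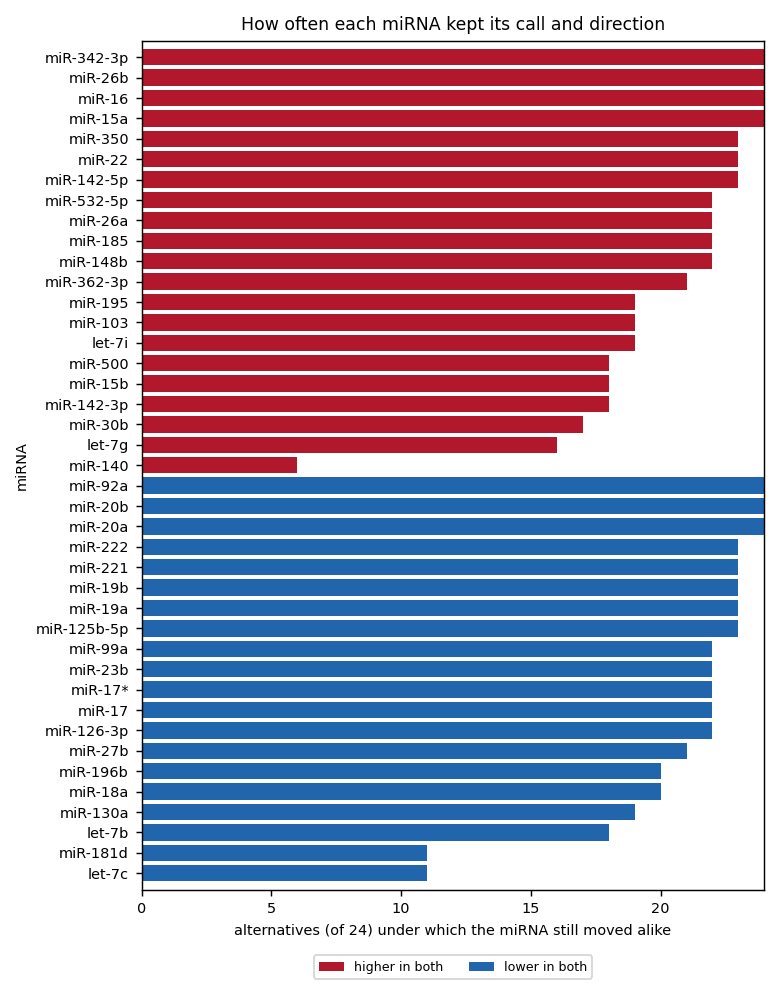
Each bar gives, for 1 of the 41 microRNAs, under how many of 24 alternative settings it still moved alike in the same direction. miR-15a, miR-16, miR-26b and miR-342-3p (red) and miR-20a, miR-20b and miR-92a (blue) kept the call under all 24, whereas miR-140 kept it under 6 and let-7c and miR-181d under 11.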

How the data were processed

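Total RNA from sorted cells was labelled with Cy3 and run on 1-colour Agilent mouse microRNA arrays. The deposited values are spot intensities, gProcessedSignal, which the authors' scanner software, Feature Extraction, had background-corrected (version 10.7.3.1 in the headers, 9.1 in the submitters' processing notes). No spot was saturated. Outlier spots and controls were dropped, and the intensities of spots and then of probes were averaged for each microRNA on both designs. Each array was divided by its 75th percentile of the 90 microRNAs detected on all 10 marrow arrays. A microRNA was detected if, for any of its probes, at least 0.5 of the spots were well above background. The floor was the median over a design's arrays of the 5th percentile of detected values. Log2 values of 153 microRNAs entered limma 3.58.1 under R 4.3.3 (a mean per population, array design as block, eBayes, 4 residual degrees of freedom, Benjamini-Hochberg adjustment, threshold 0.05).

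Array design, slide, scan and replicate number coincide, and arrays with the same number deviated together from their population means in all 10 pairs of populations (correlation 0.306 to 0.907), so the block was kept. Named microRNAs are all that moved alike, up to 6 called in opposite directions, and up to 4 of a list. Members and lists were chosen with earlier results of these data known. P-values rest on how far the 2 arrays of a population still disagreed once the shift between designs shared by all populations was removed. The 2 pools of each population were on different designs, so spread between pools cannot be told apart from that between designs. Where a group sat at the floor its values do not vary, and the p-values can be too small. Alternatives covered background correction, scaling, filter, floor, block, probe summary, samples, progenitor reference and each array left out. Positions of probes (mm9) come from the array files, with microRNAs within 10 kb taken as a row. The fit was tested on simulated data. The 6 spleen arrays were used only in the alternative with all 16 arrays.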

Additional observations from a re-analysis of the deposited data

Results flagged for a closer look

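A direct test between the 2 mature populations called 20 of the 41 microRNAs that moved alike (limma, adjusted p under 0.05), beside 71 of all 153 tested (46.4%), a share near theirs. All values are Gr1+ monocytes minus PDC on the log2 scale. Among the higher microRNAs, miR-22 (1.01) and miR-16 (0.74) were above PDC in monocytes. miR-362-3p (-3.32), miR-532-5p (-2.52), miR-500 (-1.59), let-7g (-0.84) and miR-26b (-0.47) were below PDC there. Among the lower microRNAs, the early progenitor members miR-126-3p (-1.91), miR-196b (-1.53) and miR-130a (-1.42) were lower in monocytes. These 3 were not well above background on either monocyte array, so the differences depend on the floor, and the bounds are at least 2.74-fold, at least 2.10-fold and at least 1.94-fold lower. Also lower in monocytes were miR-181d (-1.73), miR-222 (-0.67), let-7c (-0.43) and let-7b (-0.34). The miR-17 cluster members miR-18a (1.85), miR-17 (1.14), miR-20a (0.78), miR-19a (0.65) and miR-20b (0.54), and miR-27b (0.88), fell further in PDC.

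For the 6 microRNAs called in opposite directions against the progenitors, a difference between the mature populations follows from how they were picked. Its size and direction are given here and add no separate evidence. miR-223 (4.10) and miR-27a (1.75) were higher in monocytes than in PDC. miR-128 (-4.21), miR-181a (-3.00), miR-181c (-2.79) and miR-374 (-1.30) were lower in monocytes than in PDC. No group had the 4 arrays needed to look for an outlying array.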

How the results depend on the processing

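With normexp on the mean and background signals, 25 microRNAs were called in the mature versus progenitor contrast, 13 in Gr1+ monocytes versus progenitors, 33 in PDC versus progenitors and 4 in Gr1+ monocytes versus PDC; 9 moved alike, 5 higher and 4 lower, and 2 were opposite. The median of all tested microRNAs then stood at 0.76 for Gr1+ monocytes versus progenitors; the cause was not tested. With no filter on dim microRNAs, which raises the number tested, 42 were called in monocytes versus progenitors, 40 in monocytes versus PDC, and 22 moved alike, 11 in each direction. With only microRNAs detected on all 10 arrays, which tests fewer, 46 were called in monocytes versus PDC. With each population as 1 value, which leaves fewer samples, 13 were called in mature versus progenitor.

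Without the replicate block 72 were called in mature versus progenitor, 57 in Gr1+ monocytes versus progenitors, 66 in PDC versus progenitors and 51 in Gr1+ monocytes versus PDC, and 32 moved alike (15 higher, 17 lower). Leaving out each array in turn gave 73 to 86, 61 to 69, 66 to 83 and 56 to 71 calls in the same order. Then 35 to 42 moved alike, 14 to 21 higher and 18 to 22 lower, and 5 to 8 were opposite; the fewest higher, 14, came without Gr1+ monocytes replicate 1. In these fits a lone array is taken to vary like the other populations.

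Of the named microRNAs, miR-146b, miR-374, miR-450a-5p, miR-494 and miR-503 changed sign, none of which moved alike. With normexp miR-146b (0.30), miR-450a-5p (0.31), miR-494 (0.066) and miR-503 (0.41) turned positive in mature versus progenitor, and miR-374 was 0.13 in monocytes versus PDC. miR-146b (0.22) and miR-503 (0.14) did so without MP, miR-494 (0.043) without MDP, and miR-503 (0.023) with the floor at the lowest detected value. With 1 array left out, miR-494 ranged from -0.70 to 0.58 and miR-503 from -0.16 to 0.11. Over 67 named microRNAs and all settings, 1436 of 1567 values kept direction and side of the threshold, 100 lost the threshold, 12 gained it and 19 reversed. Values near background limit miR-22, miR-195 and miR-362-3p, whose progenitor values are mostly floored.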

Other observations

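MicroRNAs that were called in PDC but not in monocytes included the whole miR-29 family, which represses collagens and DNA methyltransferases in other tissues. miR-29a read 0.24 and 0.39 in MP, -0.13 and -0.16 in MDP, -0.38 and -0.46 in CDP, 0.06 and 0.08 in monocytes, and 1.45 and 1.71 in PDC. The PDC arrays stood above all others. All 3 members were higher in PDC, by 1.66 ± 0.09, 1.94 ± 0.12 and 1.91 ± 0.13 for miR-29a, miR-29b and miR-29c, and none was called in monocytes (0.15, 0.14 and 0.01). Monocytes minus PDC was -1.51, -1.80 and -1.91 (adjusted p = 0.000323, 0.000383 and 0.00048, limma).

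miR-150, a lymphocyte microRNA that represses MYB, read -1.07 and -0.54 in PDC and -4.05 or lower in monocytes, -4.77 or lower in CDP and -3.95 or lower in MP. The 2 monocyte arrays were far apart (-4.05 and -5.53). miR-155, induced by inflammatory signals and also present in stem cells, fell from MP (-2.16 and -1.48) through MDP (-3.20 and -3.00) to CDP (-3.99 and -4.16). It was not well above background in monocytes, which were at least 4.20-fold lower than the progenitor mean (adjusted p = 0.000468, limma), and read -3.43 and -3.37 in PDC, above CDP. miR-21, common in myeloid cells, rose by 1.52 ± 0.37 in monocytes only (adjusted p = 0.0189, limma), and its PDC arrays (1.37 and 0.00) lay far apart.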
